A study of Mus musculus with 7 samples.

Results

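The pyruvate dehydrogenase kinases Pdk1, Pdk2, Pdk3 and Pdk4 were examined together with the phosphatase Pdp1, the complex subunits Pdha1, Pdhb, Dlat and Dld, and pyruvate carboxylase, Pcx, in mammary glands of tumour-prone mice. These 10 genes, of 18193 with a probe set of their own on the array, were chosen by name for their role in pyruvate use, when it was already known from the same arrays that Pdk4 signal was far lower on the CLA diet. The change of Pdk4 is therefore given as a description and supports nothing by itself. All 10 genes were among the 12497 that passed the filter on dim probe sets.

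The glands came from virgin female FVB mice aged 8 weeks of the strain FVB/PyV-Mt. All of them, in both diet groups, expressed PyV-MT, a viral transforming protein that gives rise to tumours of the mammary gland. The sources used here do not name the promoter of the transgene, and glands without it were not analysed here. For the last 4 weeks 4 of the glands' donors had eaten chow with 1% CLA, that is conjugated linoleic acid, a family of fatty acid isomers found in milk and meat of ruminants, and 3 had eaten the control AIN93G chow. Each gland was hybridised to its own 1-colour Affymetrix array, and the values are MAS5 signals on a linear scale. The study placed 6 mice on CLA and 5 on control chow.

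Pyruvate made by glycolysis enters the mitochondrion, where the pyruvate dehydrogenase complex converts it to acetyl-CoA. The complex joins the E1 dehydrogenase (Pdha1 and Pdhb), the E2 acetyltransferase (Dlat) and the E3 dehydrogenase (Dld). The kinases phosphorylate the E1 alpha subunit and switch the complex off, and the phosphatase switches it on again. Pdk4 is known as the isoform induced by fasting, fatty acids and glucocorticoids in muscle, heart and fat, and it spares glucose while fat is burned. Pyruvate carboxylase takes pyruvate another way, to oxaloacetate, which in fat cells feeds the export of citrate for fatty acid synthesis and the making of glycerol.

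The arrays had equal trimmed mean signals, and their pairwise Pearson correlations across probe sets lay between 0.909 and 0.937. Markers of luminal mammary epithelium, of which 15 of 16 were tested, had summed signals of 104528 to 114850 on CLA and 97851 to 123772 on control arrays, and Elf5, a factor of the luminal lineage, had 14411 to 17638 on CLA and 15988 to 19909 on control arrays. CLA replicate 4 stood apart in fat cell markers, with a white adipocyte score of 0.25, where the other CLA arrays had -0.96 to -0.81 and the control arrays 0.60 to 0.97 (log2 units, relative to the mean of the 7 arrays). On CLA replicate 3 the Actb probe set at the 3′ end was 2.78 times as bright as that at the 5′ end, where the other CLA arrays had 1.41 to 1.65 and the control arrays 1.45 to 1.88. This ratio grows as RNA is degraded. The glands are bulk tissue, so fewer cells of a type and less RNA per cell cannot be told apart in any value below.

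Of the 10 genes, 8 had lower and 2 had higher mean log2 signal on CLA, and the median log2 change was -0.24, against 0.03 over all genes tested. Limma called 0 of them at an adjusted p under 0.05, where it called 0 of 12497 genes (0%), and their adjusted p over all genes lay between 0.423 and 0.997. At an unadjusted p under 0.05 there were 2 lower genes, Pdk4 and Pcx, where 3.01% of all genes tested were lower. In the other direction there was 1, Pdk3, where 2.38% of all genes were higher. CLA and control arrays did not overlap for Pdk4 and Pdha1, 2 of 10 genes, both lower on CLA, where 2.67% of all genes were lower without overlap, 2.64% were higher without overlap and 5.31% were apart in either direction. Because the choice of genes used this contrast, nothing is read from these counts.

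**Figure D1:**
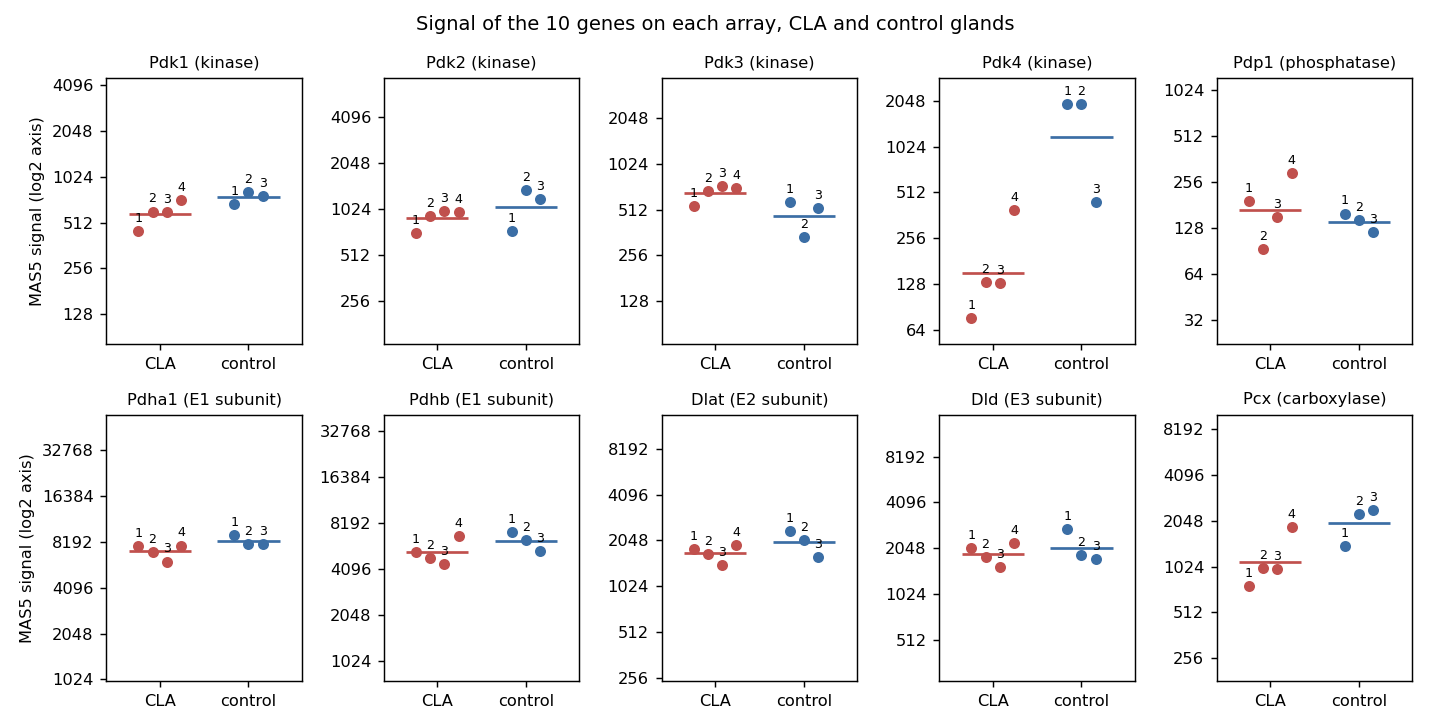
MAS5 signal (log2 axis) of the probe set used for each of the 10 genes, on the 4 CLA arrays (left, red) and the 3 control arrays (right, blue), numbered by replicate, with lines at the mean log2 signal. Every panel spans the same number of doublings, so that the spread of Pdk4, from 76.2 to 1943, can be set against the narrow spread of the complex subunits.

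Among the kinases Pdk4 had by far the widest range. Its signal was 76.2, 133, 130 and 390 on CLA replicates 1 to 4, against 1943, 1941 and 440 on control replicates 1 to 3. All CLA arrays were below all control arrays, but CLA replicate 4, at 390, lay close under control replicate 3, at 440. The mean signal was 182 ± 141 (SD, n = 4) on CLA and 1441 ± 867 (SD, n = 3) on control chow. On the log2 scale the difference was -2.98 ± 0.62 (SE), with a 95% interval from -4.38 to -1.58, which is a 7.87-fold lower signal. Of the 12497 genes, 20 had a lower log2 change than Pdk4. Without CLA replicate 4, the array with the higher fat cell markers, the difference was -3.43, and without control replicate 3 it was -3.69. Pdk4 has 1 probe set, and its lowest signal stood only a little above the filter signal of 57.7, where MAS5 values carry background.

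Pdk3, an isoform with low sensitivity to inhibition by pyruvate, ran the other way. Its signal was 540, 675, 735 and 706 on CLA replicates 1 to 4, against 573, 339 and 526 on control replicates 1 to 3. The groups overlapped only through CLA replicate 1 and control replicate 1, whose order was the reverse of that of the groups. The log2 difference was 0.50 ± 0.22 (SE), with an interval from 0.01 to 0.98, and it was 0.26 without control replicate 2, which had the lowest Pdk3 signal. That array also had the highest skeletal muscle score, 3.88. In a fit that held this score as a covariate the Pdk3 difference was 0.04 ± 0.27 (SE). The muscle score itself differed between the diets, so diet and muscle content cannot be told apart in that fit.

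Pdk1, known as a target of the hypoxia factor HIF-1, had signals of 454, 606, 602 and 721 on CLA replicates 1 to 4, against 679, 813 and 765 on control replicates 1 to 3. Of the CLA arrays only replicate 4 reached the control range. The log2 difference was -0.35 ± 0.19 (SE), with an interval from -0.77 to 0.06. The other Pdk1 probe sets above the filter gave -0.19 ± 0.23 and -0.03 ± 0.19, and 1 below it gave -1.38 ± 0.67, so the size of the Pdk1 difference depended on the probe set.

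Pdk2, the most widely expressed isoform, had 717, 921, 999 and 974 on CLA replicates 1 to 4, against 734, 1366 and 1184 on control replicates 1 to 3. The arrays labelled replicate 1 of each group were the lowest of their groups and nearly equal. The log2 difference was -0.24 ± 0.23 (SE), with an interval from -0.75 to 0.27. It was -0.06 without control replicate 2 and -0.51 without control replicate 1.

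**Figure D2:**
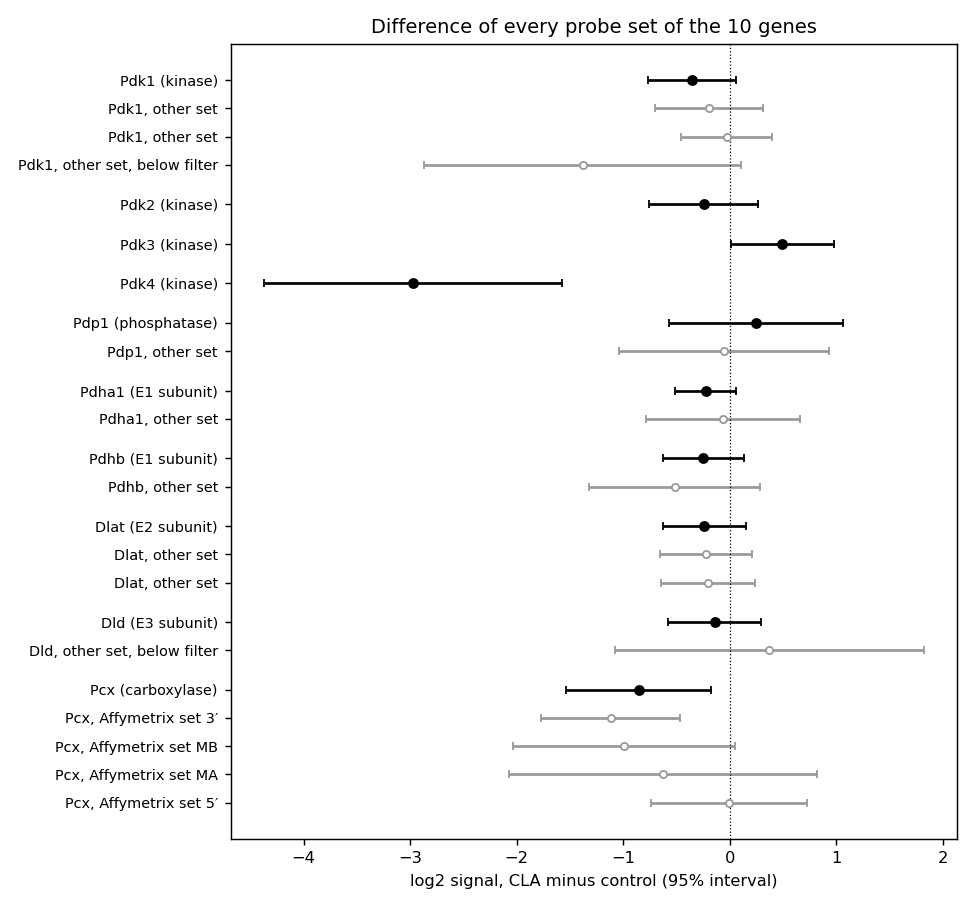
Difference in log2 signal, CLA minus control, with 95% intervals from limma, for every probe set of the 10 genes. Filled points are the probe sets used, and open points are the 13 others, of which 4 are Affymetrix control sets for Pcx. The open points come from a separate fit without the filter. Pdk4 stands at -2.98, and the other probe sets used run from -0.86 for Pcx to 0.50 for Pdk3.

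Pdp1, the catalytic subunit of a phosphatase that reactivates the complex, varied more among the CLA arrays than among the control arrays. Signals were 192, 92.6, 150 and 292 on CLA replicates 1 to 4, against 159, 144 and 121 on control replicates 1 to 3. The CLA values lay on both sides of the control values. The log2 difference was 0.25 ± 0.36 (SE), with an interval from -0.57 to 1.07. It was -0.02 without CLA replicate 4, the array with the highest Pdp1 signal. The other Pdp1 probe set gave -0.05 ± 0.44.

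The subunits of the complex differed little, and all 4 in the same direction. Pdha1, the E1 alpha subunit that the kinases phosphorylate, had 7713, 6982, 6087 and 7752 on CLA replicates 1 to 4, against 9153, 7945 and 7876 on control replicates 1 to 3. The groups were apart, with CLA replicate 4 close under control replicate 3. The log2 difference of Pdha1 was -0.23 ± 0.13 (SE), with an interval from -0.51 to 0.06, but the other Pdha1 probe set overlapped between the groups and gave -0.06 ± 0.33. Pdhb, the E1 beta subunit, had 5330, 4859, 4397 and 6761 on CLA replicates 1 to 4, against 7185, 6351 and 5340 on control replicates 1 to 3. The groups overlapped, with CLA replicate 4 above control replicates 2 and 3. Its difference was -0.25 ± 0.17 (SE), with an interval from -0.63 to 0.14, and a dimmer probe set gave -0.52 ± 0.36. Dlat, the E2 core, had 1801, 1669, 1404 and 1915 on CLA replicates 1 to 4, against 2376, 2058 and 1603 on control replicates 1 to 3. Control replicate 3 lay below all CLA arrays but replicate 3. Its difference was -0.24 ± 0.17 (SE), with an interval from -0.63 to 0.15, and its other probe sets gave -0.22 and -0.20. Dld, the E3 subunit, which also serves the other 2-oxoacid dehydrogenases, had 2041, 1790, 1538 and 2202 on CLA replicates 1 to 4, against 2742, 1843 and 1749 on control replicates 1 to 3. Only control replicate 1 stood above the CLA range. Its difference was -0.14 ± 0.20 (SE), with an interval from -0.58 to 0.30, and a probe set below the filter gave 0.37 ± 0.65.

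The subunits shared their extreme arrays. All 4 were lowest on CLA replicate 3 and highest on control replicate 1, and the mean of the 4, relative to the 7 arrays, ran from -0.35 to 0.13 on CLA and from -0.09 to 0.37 on control arrays. CLA replicate 3 is the array with the high Actb 3′ to 5′ ratio. With that ratio as a covariate the differences were -0.18 for Pdha1, -0.20 for Pdhb, -0.18 for Dlat and -0.07 for Dld, and without control replicate 1 they were -0.16 for Pdha1, -0.14 for Pdhb, -0.11 for Dlat and 0.06 for Dld.

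Pcx was the member with the next lowest log2 change after Pdk4. Its signal was 766, 999, 988 and 1864 on CLA replicates 1 to 4, against 1403, 2272 and 2400 on control replicates 1 to 3. CLA replicate 4 was above control replicate 1, and the other CLA arrays were below all control arrays. The mean signal was 1154 ± 485 (SD, n = 4) on CLA and 2025 ± 542 (SD, n = 3) on control chow. The log2 difference was -0.86 ± 0.30 (SE), with an interval from -1.53 to -0.18, a 1.81-fold lower signal, and without CLA replicate 4 it was -1.11.

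Pyruvate carboxylase is also one of the transcripts for which Affymetrix places control probe sets along the length of the RNA, so Pcx was measured 5 times on each array. The set named 3′ had 577, 702, 602 and 1259 on CLA replicates 1 to 4, against 1144, 1862 and 1973 on control replicates 1 to 3. Its difference was -1.12 ± 0.29 (SE), close to that of the set used. The sets named MB and MA, from the middle of the transcript, gave -0.99 ± 0.47 and -0.63 ± 0.65, both with overlap. MB had 207.5, 243, 77.2 and 355 on CLA replicates 1 to 4, against 403, 265 and 528 on control replicates 1 to 3. MA had 155, 117, 24.7 and 204 on CLA replicates 1 to 4, against 199, 106 and 163 on control replicates 1 to 3. Both were lowest on CLA replicate 3, the array with the high Actb ratio, and their differences without that array were not computed. The 5′ set had 64.5 to 118 on CLA and 84.4 to 109 on control arrays, with a difference of -0.01 ± 0.33 (SE). All of these signals of the 5′ set were dim, close to the filter signal. The ratio of the 3′ to the 5′ set of Pcx was 5.45, 6.60, 9.33 and 10.7 on CLA replicates 1 to 4, against 11.6, 17.2 and 23.4 on control replicates 1 to 3. This order was not that of the Actb ratio, in which CLA replicate 3 was the highest. Because the 5′ set was dim on every array, the order of the Pcx ratio cannot show whether RNA quality bears on the Pcx values, which was not tested.

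**Figure D3:**
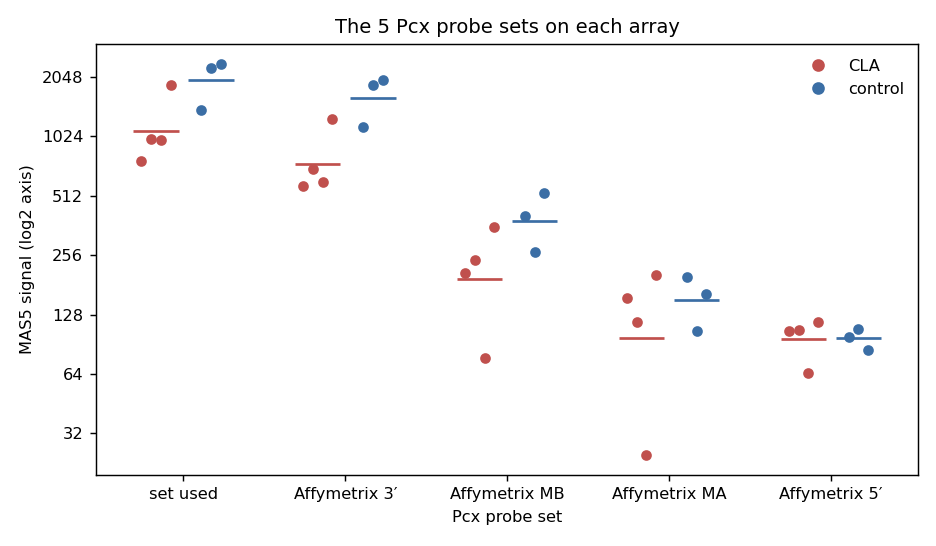
MAS5 signal (log2 axis) of the 5 Pcx probe sets on the 4 CLA arrays (left of each pair, red) and the 3 control arrays (right, blue), with lines at the mean log2 signal. The set used and the 3′ set separate the groups except for CLA replicate 4, while the 5′ set has 64.5 to 118 on CLA and 84.4 to 109 on control arrays. Heights of different sets are not comparable.

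The stretches upstream of Pdk4 and Pcx are shown because these genes had the lowest log2 changes of the list. Each is the 250 bases before a RefSeq transcription start on GRCm38.p6, 5′ to 3′ on the strand of the gene. They are chr6:5496279-5496528 on the minus strand for Pdk4 and chr19:4510222-4510471 on the plus strand for Pcx. Pcx has 2 such windows in the RefSeq set. The one nearest the annotated start of the gene is shown, and the matches in the other are not described here. Capitals mark matches, on either strand, to CCAAT (the CCAAT box), CACGTG (an E-box) and GGGCGG (a GC box).
Pdk4: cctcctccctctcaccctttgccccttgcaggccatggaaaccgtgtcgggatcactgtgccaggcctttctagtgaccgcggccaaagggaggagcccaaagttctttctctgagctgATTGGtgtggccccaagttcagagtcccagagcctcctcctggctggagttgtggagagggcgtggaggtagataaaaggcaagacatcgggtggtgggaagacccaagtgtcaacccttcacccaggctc
Pcx: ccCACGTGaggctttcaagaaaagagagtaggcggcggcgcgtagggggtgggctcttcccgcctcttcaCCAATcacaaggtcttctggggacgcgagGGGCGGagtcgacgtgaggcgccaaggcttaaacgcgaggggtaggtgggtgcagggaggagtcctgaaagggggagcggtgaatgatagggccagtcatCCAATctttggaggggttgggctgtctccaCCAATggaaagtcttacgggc

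The Pdk4 stretch holds 1 CCAAT match, on the opposite strand and read as ATTGG, and the Pcx stretch holds 3 CCAAT matches, 1 CACGTG and 1 GGGCGG, none of which overlap. Of 32851 such windows of the same length in the RefSeq set, 33.8% hold CCAAT, 6.02% CACGTG and 32.7% GGGCGG on either strand. Matches to AGGTCA, a sequence bound by nuclear receptors and held by 14% of windows, to GTAAACA, bound by FoxO factors and held by 3.17%, and to TATAAA, held by 12.4%, were not found in these 2 stretches. A match in letters is not a site in use, and both windows are short. For Pdp1 no window was used here.

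Set beside one another on each array, the kinases did not move as a group. Relative to the mean of the 4 subunits, Pdk4 was at -2.25, -1.31, -1.14 and -0.04 on CLA replicates 1 to 4, against 2.04, 2.33 and 0.37 on control replicates 1 to 3 (log2, each gene relative to its mean over the 7 arrays). These values did not overlap, and the difference of the means was -2.76. The mean of Pdk1, Pdk2 and Pdk3 relative to the subunits was 0.08 ± 0.33 (SD, n = 4) on CLA and -0.10 ± 0.36 (SD, n = 3) on control chow, but this mean joins kinases that differed in direction. Relative to the subunits the difference of the means was -0.14 for Pdk1 and -0.03 for Pdk2, each smaller than the SD of either group. For Pdk3 it was 0.71, with 0.30 ± 0.34 (SD, n = 4) on CLA and -0.40 ± 0.41 (SD, n = 3) on control chow, larger than either SD but with overlap. Pdp1 was 0.20 ± 0.58 (SD, n = 4) on CLA and -0.26 ± 0.07 (SD, n = 3) on control chow relative to the subunits, a difference of 0.46 with overlap. Pcx was -0.28 ± 0.48 (SD, n = 4) on CLA and 0.37 ± 0.65 (SD, n = 3) on control chow, a difference of -0.64 with overlap. Pdk4 relative to Pdp1 differed by -3.23, and all 4 CLA arrays were below all 3 control arrays. Pdk4 relative to Pcx differed by -2.12 with overlap through control replicate 3, at -0.50. None of these combined values was tested, since the genes were chosen with this contrast known.

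Markers of fat cells also differed between the diets. The 16 tested white adipocyte markers of a list of 20 all had lower signal on CLA, with a median log2 change of -1.40 and summed signals of 22537 to 48807 on CLA and 60144 to 75826 on control arrays. None was called over all genes, and 15 were lower at an unadjusted p under 0.05 (3.01% of all genes tested), among them Retn (resistin, -2.04), Cd36 (a fatty acid importer, -1.50) and Fabp4 (a fatty acid binding protein, -1.30). Lpl, lipoprotein lipase, also passed that level, with 3914 to 6633 on CLA and 9485 to 9763 on control arrays. The tested white adipocyte list lacks Plin1, Cfd, Aqp7 and Adrb3, and the brown adipocyte list lacks Zic1. All 10 tested brown adipocyte markers of 11 had lower signal too, 6 at an unadjusted p under 0.05, with a median of -1.45 and summed signals of 1434 to 6055 on CLA and 4071 to 17806 on control arrays. The brown adipocyte score was -1.04, -1.20, -1.15 and 0.45 on CLA replicates 1 to 4, against 1.56, 1.52 and -0.15 on control replicates 1 to 3. Pdk4 had a like order of arrays, high on control replicates 1 and 2 and intermediate on control replicate 3 and CLA replicate 4. The white adipocyte score was also highest on control replicates 1 and 2, at 0.78 and 0.97. It was 0.60 on control replicate 3 and 0.25 on CLA replicate 4. Pcx did not have such an order, since control replicate 1 was its lowest and control replicate 3 its highest control array.

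The skeletal muscle list had 19 of 21 members tested. At an unadjusted p under 0.05, 18 were lower and 0 higher, where 3.01% of all genes tested were lower and 2.38% higher. The list had a median of -3.77 and summed signals of 1941 to 20450 on CLA and 14073 to 125291 on control arrays. Its score was 1.16, -3.09, -1.12 and -2.89 on CLA replicates 1 to 4, against 0.70, 3.88 and 1.37 on control replicates 1 to 3. CLA replicate 1, the array with the lowest Pdk4 and Pcx, had a muscle score inside the control range. In the fit with that score the difference was -3.58 ± 0.93 (SE) for Pdk4 and -1.14 ± 0.45 for Pcx. With the white adipocyte score as a covariate it was -0.41 ± 0.90 for Pdk4 and 0.27 ± 0.48 for Pcx, and with the brown adipocyte score, an alternative added after seeing the data, -0.94 ± 0.40 for Pdk4 and -0.54 ± 0.47 for Pcx. Less the brown adipocyte score, array by array, Pdk4 was at -0.54 ± 0.45 (SD, n = 4) on CLA and 0.72 ± 0.26 (SD, n = 3) on control arrays without overlap. Less the muscle score, the difference of the means was 0.49 for Pdk4 and 2.61 for Pcx, both with overlap and with the sign opposite to that of the fit with the muscle score as a covariate. Less the adipocyte scores Pcx had differences of 0.51 for the white and 0.86 for the brown score, both with overlap. Less the white adipocyte score Pdk4 was at -0.69 ± 0.54 (SD, n = 4) on CLA and 0.92 ± 1.08 (SD, n = 3) on control arrays with overlap. The adipocyte and muscle scores themselves differ between the diets, so diet and the content of fat or muscle cells cannot be told apart in such a fit.

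**Figure D4:**
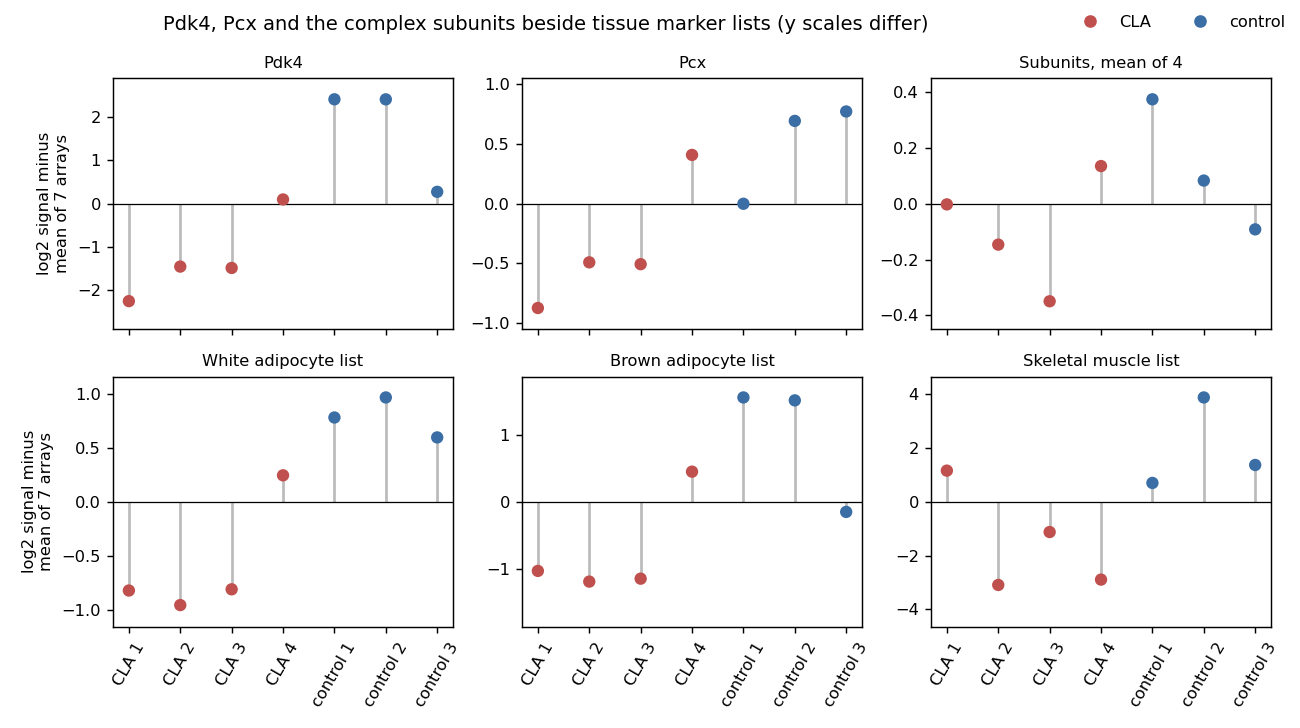
Log2 signal relative to the mean of the 7 arrays for Pdk4, Pcx, the mean of the 4 subunits and the scores of 3 marker lists, on each CLA (red) and control (blue) array. Scales differ between panels. Pdk4 and both the white and the brown adipocyte list share their 2 highest arrays, control replicates 1 and 2. The muscle list is highest on control replicate 2 and positive on CLA replicate 1.

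Of 10 basal epithelial markers 6 had higher and 4 lower signal on CLA, with a median of 0.33. At an unadjusted p under 0.05, which 2.38% of all genes tested passed as higher, 3 were higher and 0 lower, the keratins Krt17 (1.67), Krt5 (1.24) and Krt14 (1.40). Trp63 had 0.85 and did not pass, and summed signals were 8722 to 11282 on CLA and 5461 to 8767 on control arrays. The luminal list had a median of -0.00, with Muc1 (-0.54) lower and Krt7 (0.45) higher at an unadjusted p under 0.05. Of 10 macrophage markers 4 had lower and 6 higher signal, with a median of 0.09. At an unadjusted p under 0.05, where 3.01% of all genes tested were lower, 2 were lower, Cd163 (-1.06) and Cd14 (-0.68), and 0 higher, while Fcgr1 had 0.52 and Cd68 0.26. Of 10 endothelial markers 8 had lower and 2 higher signal, with a median of -0.26, and 0 passed that level. The part of these cell types in the values of the 10 genes was not tested.

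Within the subset of arrays whose title numbers start with 28 (3 CLA and 2 control arrays) Pdk4 differed by -2.29 and Pcx by -0.93, and between the 2 arrays with numbers that start with 27 they differed by -4.67 and -0.87. The sources used here do not say what these numbers stand for. Pdk3 was 0.74 within 28 and -0.09 within 27, Pdk1 -0.30 and -0.58, and Pdk2 -0.40 and -0.03. The Dld difference was 0.02 within 28 and -0.43 within 27, and for Pdha1, Pdhb and Dlat both values were negative. With the title number as a block Pdk4 was at -2.99, Pcx at -0.91 and Pdk3 at 0.50.

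The genes around the complex were taken from a list of 24 for the transport and other uses of pyruvate and citrate, of which 22 were tested. Over all genes 0 were called, and at an unadjusted p under 0.05 there were 4 lower and 0 higher, where 5.39% of all genes pass in either direction. Me1, malic enzyme, which yields pyruvate and NADPH, had 3701 to 4747 on CLA and 5984 to 7820 on control arrays, a log2 difference of -0.68 ± 0.14 (SE). Mpc1, a subunit of the carrier that brings pyruvate into the mitochondrion, had 3554 to 4533 on CLA and 5210 to 7126 on control arrays, a difference of -0.70 ± 0.15. Slc25a1, the citrate carrier, had 1380 to 2010 on CLA and 2263 to 3004 on control arrays, a difference of -0.68 ± 0.17. In these 3 genes, named for their small p, all CLA arrays lay below all control arrays, as in 2.67% of all genes tested. Pck1, which draws on oxaloacetate to make glycerol phosphate in fat cells, overlapped between the groups and had a difference of -2.11 ± 0.51. Of the 22 genes 16 had lower and 6 higher signal, and the median of the list was -0.09, against 0.03 over all genes tested.

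Glycolysis genes had 17 of 20 members tested, 11 with lower and 6 with higher signal, and a median of -0.10. At an unadjusted p under 0.05 there were 5 lower and 0 higher, where 3.01% of all genes tested were lower and 2.38% higher. Pfkfb3, which makes the activator of phosphofructokinase, had 201 to 397 on CLA and 503 to 629 on control arrays, a difference of -1.04 ± 0.24 (SE). Hk2, the insulin-regulated hexokinase, had 524 to 752 on CLA and 987 to 1844 on control arrays, a difference of -0.97 ± 0.24. Both were lower on CLA without overlap, as were 2.67% of all genes tested. Slc2a4, the insulin-regulated glucose transporter, had -0.99 ± 0.30, and Pgam2, a muscle phosphoglycerate mutase, -3.28 ± 1.03, both with overlap.

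Of 15 regulators known to act on Pdk genes in mouse or other mammals, 14 were tested, 9 with lower and 5 with higher signal, and the median was -0.07. Unadjusted p was under 0.05 for 3 lower and 0 higher regulators, where 3.01% of all genes tested were lower and 2.38% higher. They were Pparg, the fat cell PPAR, at -1.52 ± 0.42 (SE), Lpin1 at -0.82 ± 0.30 and the hypoxia factor gene Epas1 at -0.43 ± 0.17, all with overlap. Ppargc1b had -0.64 ± 0.32 and did not pass that level. Of 23 genes known as PPAR targets beside Pdk4, 19 were tested. All of these had lower signal on CLA, 15 at an unadjusted p under 0.05, where 3.01% of all genes tested were lower, with a median of -0.65. Ucp3, a mitochondrial carrier, had 67.2 to 162 on CLA and 292 to 593 on control arrays, a difference of -1.97 ± 0.36. Acadl, an acyl-CoA dehydrogenase, had 4705 to 5747 on CLA and 7971 to 9918 on control arrays, a difference of -0.74 ± 0.14. Cd36 and Lpl stand in this list too. None of the genes of these lists was called over all genes, and the lists were drawn up with the lower signals of fat cell genes on these arrays known.

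The 5 tested genes whose profile over the 7 arrays was nearest to that of Pdk4, by the root mean square difference of log2 signal relative to each gene's mean, were Ces1d (0.64), Ppp1r3b (0.64), Cidea (0.65), Pck1 (0.65) and Pygl (0.68). The median of all genes was 1.78, and a gene with equal signal on all arrays would have 1.74. Ces1d, a carboxylesterase, had 174, 94.4, 236 and 502 on CLA replicates 1 to 4, against 1339, 1559 and 666 on control replicates 1 to 3. Ppp1r3b, a glycogen-targeting subunit of protein phosphatase, had 82.6, 46.7, 70.3 and 285 on CLA replicates 1 to 4, against 482, 828 and 226 on control replicates 1 to 3. Cidea, a lipid droplet protein of brown fat, had 238, 112, 154 and 1108 on CLA replicates 1 to 4, against 5091, 4026 and 809 on control replicates 1 to 3. Each of these 5 genes was higher on control replicates 1 and 2 than on control replicate 3. Among the CLA arrays each was highest on replicate 4, as Pdk4 was. The 5 genes were picked for being near Pdk4 on these same arrays, so this likeness follows from the choice.

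**Figure D5:**
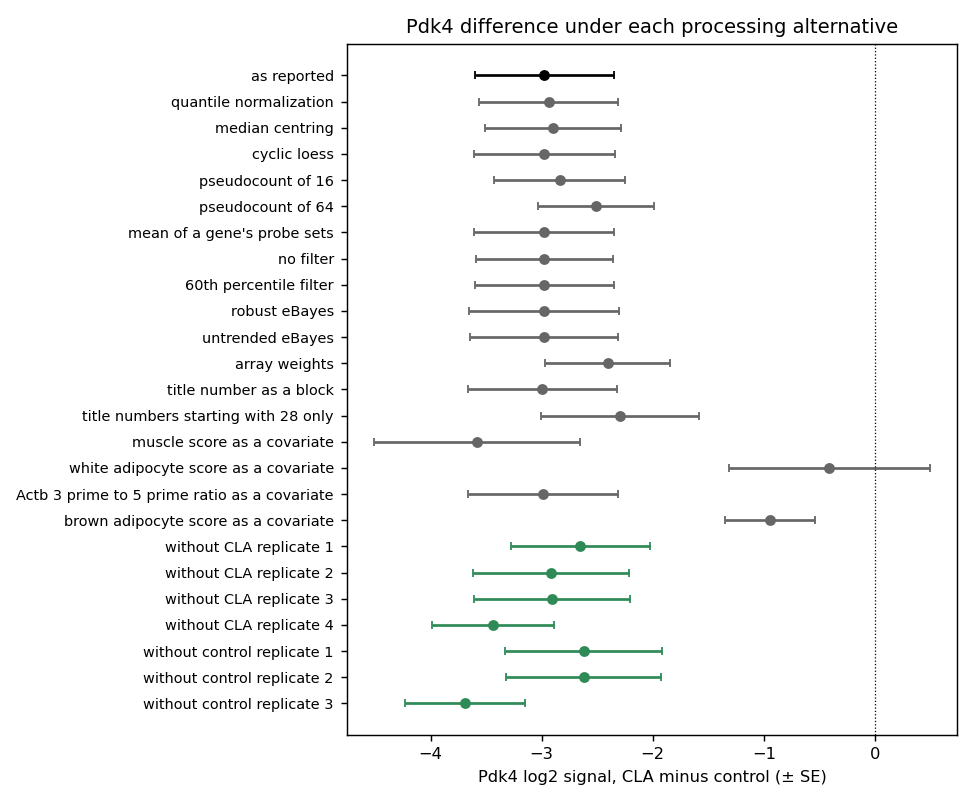
Pdk4 log2 difference, CLA minus control, with its SE, as reported (black), under each alternative processing (grey) and with each array left out in turn (green). The difference stays between -3.69 and -2.29 except with the white adipocyte score (-0.41) or the brown adipocyte score (-0.94) as a covariate.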

How the data were processed

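Total RNA of mammary glands was labelled with biotin and hybridised to Affymetrix arrays, per the labels' protocols. The deposited values are linear intensities made by the authors with MAS5, as the submitters' processing notes name it, in a version not given in the sources used here. The 2% trimmed mean was 500.003 on each array, so the deposited intensity values were used as scaled, and a difference is relative to the bulk of the probe sets.

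Groups came from the diet in the labels. The source name of every sample is a mouse on its diet and the title numbers all differ, but no label states that the animals were separate. If they were not, p-values measure only the spread between these samples. The number of arrays limits the precision.

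Log2 was taken after a floor of 1. Probe sets of 1 gene symbol were used (34945 of 45101, with 64 control sets left out), with symbols updated by Entrez identifier through a RefSeq table of GRCm38.p6 for 34741 of them. Each gene took its probe set of highest mean log2 signal. Of 18193 genes, the 12497 whose mean reached the 40th percentile of all probe sets, a signal of 57.7, were tested. Limma 3.58.1 (R 4.3.3) fitted CLA minus control on all 7 arrays without covariates, by eBayes with trend and 4.53 prior degrees of freedom. Its two-sided p-values were adjusted over the 12497 genes with the Benjamini-Hochberg method, and the script was tested on simulated data. Probe sets beside those used, the control sets of Pcx included, came from a separate fit of the same model. It took all probe sets with a symbol, without the filter, and had its own eBayes step. A list score is the mean over tested members of log2 signal relative to each gene's mean over the 7 arrays.

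The genes, lists and alternatives were chosen with earlier results of these arrays known. Besides the 10 genes, the text names the 4 tested genes of smallest p of each list, not all of which are printed, and the 5 genes nearest to Pdk4. Alternatives were other normalizations, pseudocounts, filters, eBayes settings, array weights, averaging over the probe sets of a gene, the title number, covariates (tissue scores, the Actb ratio), and each array left out. Matplotlib 3.10.9 (Python 3.11.15) drew the figures.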

Additional observations from a re-analysis of the deposited data

Results flagged for a closer look

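The white adipocyte score of CLA replicate 4, 0.25, lay far from the other CLA arrays, at -0.96 to -0.81. Its gap to the nearest of them was 0.878 of the range of the group. The brown adipocyte score of the same array, 0.45, stood against -1.20 to -1.04, with a gap of 0.903 of the range. Both gaps were above Dixon's 95% critical value for 4 samples, which chance passes in about 1 in 20 groups. Of 23 values of the genes, scores and ratios checked over the CLA arrays, these 2 were above it, and all 23 rest on the same 4 arrays. On the same array Pdk4 (390), Pcx (1864) and Pdp1 (292) had their highest CLA signals, and the gaps of Pdk4 and Pcx, 0.660 and 0.702 of the log2 range, were under that value. The cause was not tested.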

How the results depend on the processing

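No gene was called over all genes in the fit as reported. The count was 3 with array weights, 1 with the arrays of title numbers starting with 28 alone, and 0 to 17 with an array left out, 17 without CLA replicate 4 and 2 without control replicate 1. Pdk4 and the other 9 genes were in none of these calls. The Pdk4 difference of -2.98 moved by more than the spread between arrays with the white adipocyte score as a covariate (-0.41) and with the brown adipocyte score (-0.94), and with an array left out it ran from -3.69 to -2.62. Its adjusted p ran from 0.0868 to 1.0 over all alternatives. Pdk2, Pdk3, Pdk4 and Pdha1 kept their sign under every alternative and left-out array, while the sign turned under 4 of 17 alternatives for Dld, 2 for Pdhb, 2 for Dlat, 1 for Pdk1 and 1 for Pcx, most of them with an adipocyte score as a covariate. The Pdp1 difference, which is not tested under the 60th percentile filter, ran from 0.06 to 1.64 over the others and was -0.02 without CLA replicate 4. Median centring moved the median of all genes tested to 0.11, against 0.03 as reported, and Pdk4 to -2.90. No paired analysis was possible because the titles hold numbers that differ for every sample and no replicate numbers shared between the groups. Low MAS5 signals limit the differences of Pdp1, of Pdk4 on CLA arrays and of the 5′ set of Pcx.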
